A study of Mus musculus with 6 samples.

Results

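The genes described here encode the membrane proteins and scaffolds through which neighbouring cells attach, seal and communicate: cadherins, claudins with occludin, zonula occludens proteins, junctional adhesion molecules and connexins. They were taken by fixed patterns of gene symbol, which were set with earlier results of these data known. Of the 22609 genes listed in the count files, 74 belong to these 5 families. The cells were primary cultures from inguinal white adipose tissue (iWAT) of male C57BL6 mice, aged 3 weeks by the labels, made by isolating the stromal vascular fraction, which holds the precursors of fat cells, and differentiating it. One group of 3 samples received a control vector and the other group of 3 received miR182 overexpression. The sample labels name electroporation for both, whereas the study's methods describe a synthetic mimic delivered with a lipid reagent and give another age, so neither the form in which miR-182-5p entered the cells nor the age of the mice is settled. No genetic alteration is named for either group, and neither source says whether the samples of a group were separate preparations, so the p values measure the spread between these samples, which may be technical.

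Classical cadherins are calcium-dependent adhesion proteins that bind the same cadherin on the next cell and connect to actin through catenins. Not every member of the family works in this way. Claudins form the strands of tight junctions and decide which ions pass between cells, and zonula occludens proteins anchor these strands to the cytoskeleton. Junctional adhesion molecules are immunoglobulin-like receptors found at tight junctions. Connexins assemble into gap junction channels that pass ions and small metabolites between adjacent cells, which in adipose tissue include beige adipocytes.

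A miRNA represses mRNAs mostly through pairing of its seed, bases 2 to 8, with sites in the 3′-UTR. The mature miR-182-5p sequence of RefSeq is shown because every comparison turns on its overexpression. In its methods for PCR the study prints another sequence under this name, whose bases 2 to 8 differ. All seed matches here rest on the RefSeq sequence. RefSeq places it at chromosome 6, 30165962 to 30165986, minus strand (GRCm38.p6), and the seed is in capitals.
mmu-miR-182-5p: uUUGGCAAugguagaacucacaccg
The match to this seed in an mRNA is TTGCCAA, and TTGCCAAA is its form with an A opposite the first base of the miRNA. TGCCAAA also has this A but lacks the letter that pairs with base 8, so it matches the seed in part. Among the longest annotated 3′-UTRs (GENCODE M21 on GRCm38), 8 of 70 junction genes (11.4%) held TTGCCAA, with or without the following A, and 12.5% of the 12494 genes tested that have a 3′-UTR held it. Only the sense strand of the mRNA was searched, and TGCCAAA shares 6 letters with TTGCCAA. With TGCCAAA included, 11 of 70 junction genes had a match (15.7%), against 20.3% of the genes tested. Of the 22 junction genes with enough reads to be tested, 2 held TTGCCAA (9.09%) and 3 held a match of any of these forms (13.6%). These are the shares to set beside the 12.5% and 20.3% of the genes tested. One of the 3 is not reported here. The matches of Cdh19 and Jam2 are printed with the letters around them and the match in capitals, as places where the seed can pair in full or in part.
Cdh19, chromosome 1, 110889376 to 110889405, minus strand, exon 12 of 12: aaatgagaaatTTGCCAAAgaaagctatcc
Jam2, chromosome 16, 84824554 to 84824582, plus strand, exon 10 of 10: aacaaagtctgTGCCAAAcacctattata
Jam2, chromosome 16, 84825250 to 84825278, plus strand, exon 10 of 10: ggttgagggagTGCCAAAtctccctcctc
Of this pair, Jam2 was lower with miR182 and Cdh19 did not pass the test, as described with their families.

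Reads counted on genes ranged from 25869810 to 28796712 per sample. Levels are given as CPM, the standard unit of read counts relative to the library total, here scaled by edgeR's TMM method. At this depth 22 junction genes passed the low-count filter and 52 did not, and 17 of the 52 had 0 reads in every sample. The other 35 had at most 12 reads in any sample. A count of 0 allows up to 3 reads, which is 0.103 to 0.118 CPM depending on the sample, and covers counting error only. A gene was taken to rise or fall when its Benjamini-Hochberg adjusted p over the 13117 genes tested was under 0.05 in the quasi-likelihood test of edgeR, and was called when it also changed by at least 1.5-fold, the cutoff the study states. Fold changes are miR182 over control on the log2 scale, with the standard error (SE) of the fit.

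By adjusted p alone, 10 of the 22 junction genes changed, 6 higher and 4 lower, where 46.7% of all genes tested did so, 23.2% higher and 23.5% lower. The call at 1.5-fold was reached by 3 of 22, 2 higher and 1 lower, among them Cldn15 (higher) and Gjb5 (lower). Among all genes tested 7.45% were called, 1.97% higher and 5.48% lower. Groups did not overlap for 12 of the 22 (8 with all miR182 samples above all controls and 4 below), compared with 54.8% of all genes tested, 27.3% higher and 27.5% lower. The median log2 fold change was 0.021 over the 22 and -0.0043 over all genes tested. The shares by adjusted p and by overlap were close to the background and say nothing particular about the families as a whole, so the results lie in which members moved. Cldn15, Cldn12 (the only claudins tested) and Tjp1 rose. Jam2, Jam3 and the main connexin, Gja1, fell, and the abundant cadherins passed no cutoff. F11r, a relative of Jam2 and Jam3 outside the symbol rule, rose.

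**Figure D1:**
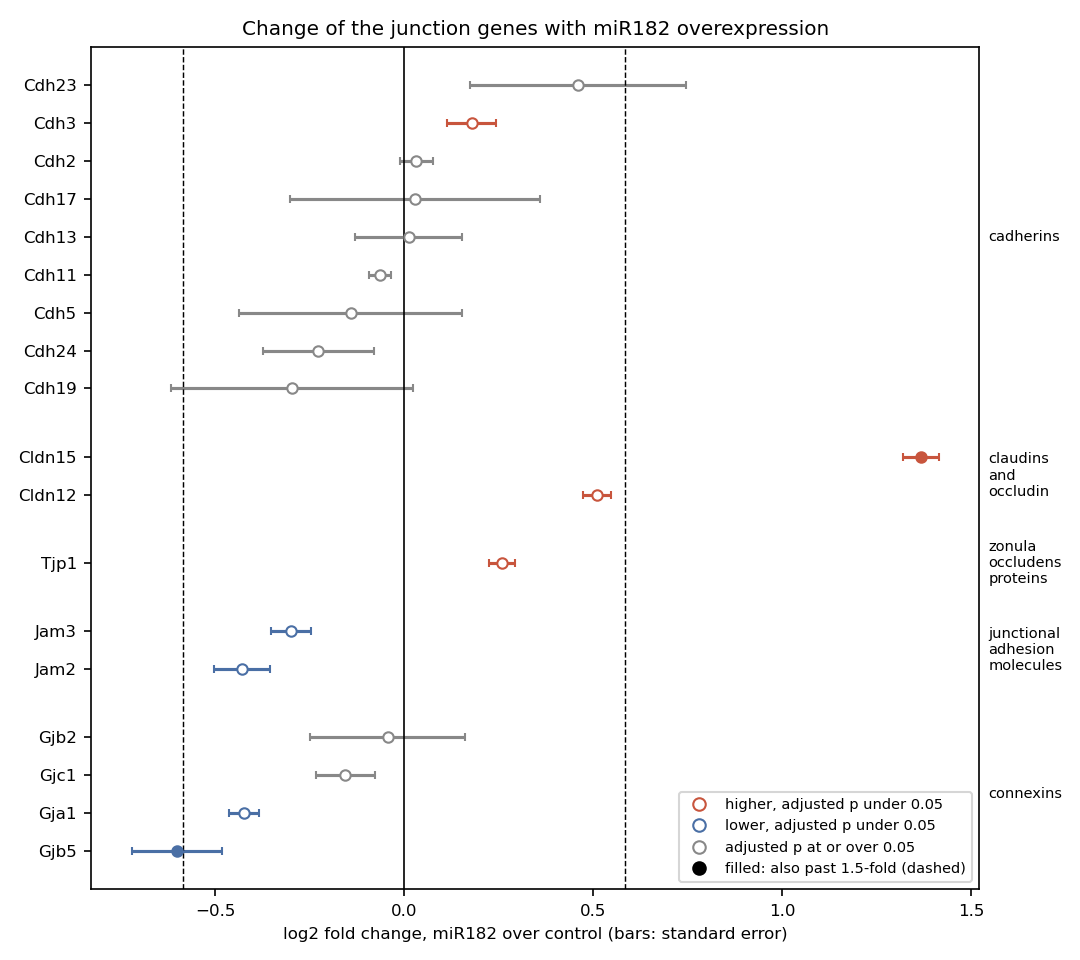
Each point is the log2 fold change of miR182 over control for 1 of 18 tested junction genes, with its standard error as a bar; colour marks an adjusted p under 0.05 and filled points also pass the dashed 1.5-fold lines at 0.585 and its negative. Cldn15 lies far to the right of the others at 1.37, and the 4 genes that fell are Jam2, Jam3, Gja1 and Gjb5.

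Claudins gave the largest change. Of 26 claudin and occludin genes only Cldn15 and Cldn12 passed the filter, and both rose. Cldn15, whose protein forms channels that let cations pass between cells of the intestinal lining, is encoded at chromosome 5, 136966616 to 136975858 (GRCm38, plus strand). It measured 24.0, 24.8 and 25.5 CPM in control replicates 1 to 3 and 63.3, 61.6 and 66.7 CPM in miR182 replicates 1 to 3. Every miR182 sample was more than double the highest control, and the spread within each group was small beside the gap. The means were 24.8 ± 0.759 and 63.9 ± 2.58 CPM (SD, n = 3 each). The log2 fold change was 1.37 (SE 0.048, 95% interval 1.27 to 1.47, edgeR adjusted p = 3.3e-11), and it ranked 16 from the top by log2 fold change and 42 by p among the 13117 genes. Omitting any 1 of the 6 samples kept the call of Cldn15.

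Cldn12, an atypical claudin that lacks the tail motif with which most claudins bind their scaffolds, is on the same chromosome at 5489537 to 5514958 (minus strand). Its levels were 49.4, 51.3 and 50.8 CPM in controls and 73.0, 72.3 and 70.7 CPM with miR182, again without overlap. The log2 fold change was 0.51 (SE 0.037, 95% interval 0.43 to 0.59, edgeR adjusted p = 7.67e-08), so that Cldn12 rose by 42.5% but stayed under the 1.5-fold line. The summed claudin and occludin level went from 76.6 ± 1.32 to 137 ± 1.78 CPM (SD, n = 3 each), a ratio of 1.79. Cldn12 took 66.0% ± 0.308 of the claudin reads in controls and 52.7% ± 1.31 with miR182 (SD, n = 3 each). The share of Cldn15 was 32.3% ± 0.550 in controls and 46.7% ± 1.36 with miR182 (SD, n = 3 each).

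Per kilobase of annotated exon, which allows genes to be set beside each other, the pair stood almost level in controls, Cldn12 at 11.9 ± 0.232 and Cldn15 at 11.7 ± 0.357 CPM per kilobase (SD, n = 3 each). With miR182 they separated to 17.0 ± 0.272 and 30.1 ± 1.21 CPM per kilobase (SD, n = 3 each). The ratio of Cldn15 to Cldn12 within a sample, per kilobase, was 0.965, 0.963 and 0.998 in controls and 1.73, 1.70 and 1.88 with miR182. The ratio did not overlap between the groups (two-sided exact permutation p = 0.1, which 3 samples against 3 cannot go below). Exon lengths came from a newer annotation than the counting may have used, so the ratio near 1 in controls depends on them, whereas the change between groups does not.

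The other claudins were at the limit of detection. Cldn11, known from myelin and the testis, had 9, 12 and 8 reads in controls and 6, 2 and 2 with miR182, which is below the filter. Cldn1, an epidermal claudin with an 8-base seed match in its 3′-UTR, had 7, 4 and 3 reads in controls and 1, 0 and 1 with miR182. Both passed the cutoffs as lower genes only when all genes with a read were tested. Cldn5, the claudin of vascular endothelium, had 0 reads in every sample. Ocln, the tetraspan tight junction protein that accompanies claudins in epithelia, had at most 2 reads. Cldn22 had up to 5 reads, but all of its 995 exon bases are shared with Wwc2 on the opposite strand.

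Epithelial marker genes were read beside the claudins because claudins are best known from epithelia. Of 10 such markers 8 had under 10 reads in every sample. Krt8, Krt18, Krt14 and Prom2 had 0 reads in all samples and Epcam had at most 1. The other 2, Krt19 and Krt7, were called higher, as were 1.97% of all genes tested. With them the summed level of the list ranged from 22.8 to 24.0 CPM in controls and from 35.0 to 46.9 CPM with miR182. Their part in the claudin values was not tested.

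Among zonula occludens proteins, Tjp1 moved in the same direction as the claudins, by less. Tjp1, the scaffold that ties claudins to actin, is encoded at chromosome 7, 65296165 to 65527781 (minus strand). It was expressed at 89.6, 85.5 and 85.5 CPM in controls and at 106, 105 and 101 CPM with miR182. No control reached the lowest miR182 sample, and the log2 fold change was 0.26 (SE 0.033, edgeR adjusted p = 2.17e-05), under the 1.5-fold line. Tjp3, the epithelial member of the family, had at most 1 read in any sample.

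**Figure D2:**
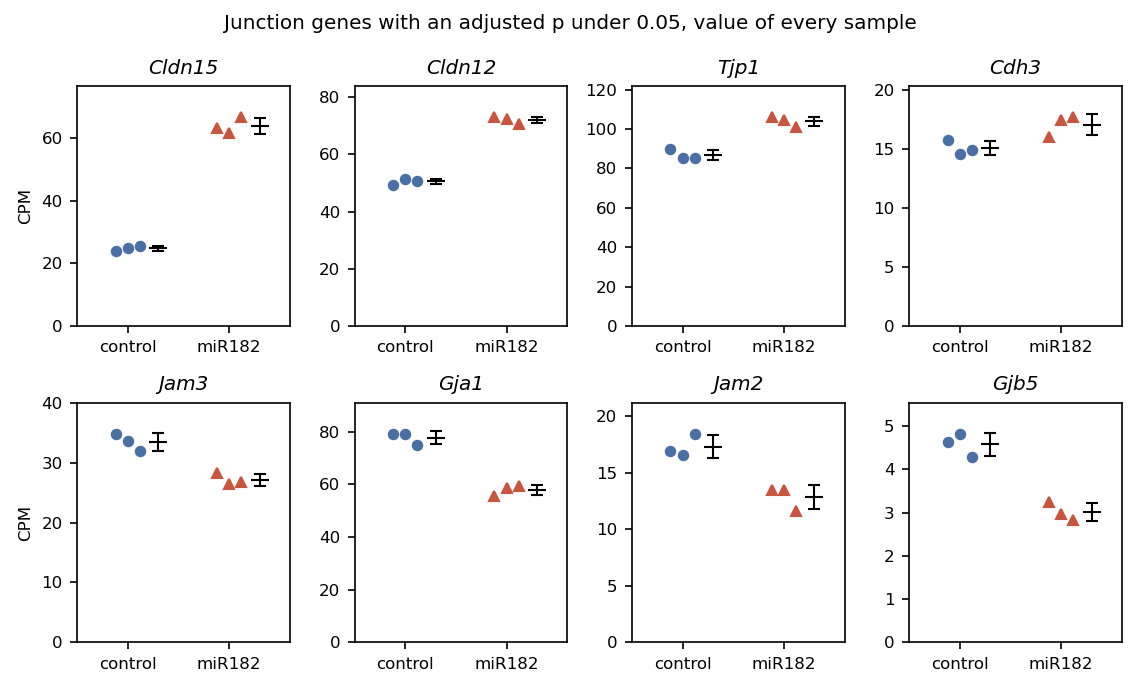
CPM of every sample for 8 junction genes with an adjusted p under 0.05, ordered from the largest rise to the largest fall; circles are control samples, triangles miR182 samples, and the bar beside them is the mean with its SD (n = 3). In all 8 panels the groups do not overlap, with Cdh3 showing the narrowest gap.

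The junctional adhesion molecules within the symbol rule fell. Jam2 and Jam3, whose proteins bind each other across cell borders, were the 2 members listed and both were tested. Jam2 (chromosome 16, 84774123 to 84825928, plus strand) was at 17.0, 16.6 and 18.5 CPM in controls and at 13.5, 13.5 and 11.6 CPM with miR182. The lowest control was above the highest miR182 sample, with a log2 fold change of -0.43 (SE 0.075, edgeR adjusted p = 0.000306). It is the gene with the pair of TGCCAAA matches printed above, and the only 1 of the 4 junction genes that fell with any match. The part of these matches in its fall was not tested. Jam3 (chromosome 9, 27097384 to 27155421, minus strand) was at 34.8, 33.6 and 32.0 CPM in controls and at 28.3, 26.4 and 26.7 CPM with miR182, with a log2 fold change of -0.30 (SE 0.053, edgeR adjusted p = 0.000331). Its 3′-UTR of 982 bases held none of the seed matches. For Jam3, 1159 of 3200 exon bases are also covered by an antisense gene on the opposite strand, and whether counting used the strand is not given in the sources used here. The summed level of both was 50.8 ± 0.870 CPM in controls and 40.0 ± 1.73 CPM with miR182 (SD, n = 3 each).

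F11r, the remaining classical member of this receptor family, falls outside the symbol rule and went the other way. It measured 33.3 ± 0.894 CPM in controls and 42.4 ± 1.49 CPM with miR182 (SD, n = 3 each), with a log2 fold change of 0.35 (SE 0.047, edgeR adjusted p = 3.52e-05). It was singled out after its values were seen. The 11 endothelial markers, which matter here because Jam2 and Jam3 are also made by endothelium, summed to 74.5 to 76.3 CPM in controls and 69.0 to 73.8 CPM with miR182. Most of this sum was Eng, which did not pass the test. Of the 11 markers 6 were tested, of which 2 fell and 1 rose by adjusted p, where 46.7% of all genes tested changed. Tek, a receptor of endothelial cells, was called lower (log2 fold change -1.31), Egfl7 fell (-0.46) and Flt1 rose (0.36). Pecam1 and Tie1 had at most 11 and 5 reads. The part of the endothelial markers in the fall of Jam2 and Jam3 was not tested. In bulk RNA, fewer cells of a type and less RNA per cell cannot be told apart.

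Connexins were led by Gja1, the most widely expressed gap junction gene, which took 76.3% ± 1.66 of connexin reads in controls and 72.3% ± 1.14 with miR182 (SD, n = 3 each). Gja1 (chromosome 10, 56377330 to 56402513, plus strand) measured 79.0, 79.2 and 75.1 CPM in controls and 55.7, 58.8 and 59.4 CPM with miR182. All miR182 samples were clearly lower, and the log2 fold change was -0.43 (SE 0.039, 95% interval -0.51 to -0.34, edgeR adjusted p = 8.9e-07). That is a fall of 25.5%, short of the 1.5-fold line. The longest 3′-UTR of Gja1, at 1720 bases, held none of the seed matches.

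Gjb5, a connexin known from skin, was the only junction gene called lower. It had 118, 126 and 112 reads in controls and 95, 78 and 80 with miR182, or 4.64, 4.82 and 4.29 CPM against 3.25, 2.96 and 2.83 CPM. The groups did not overlap, and the log2 fold change was -0.60 (SE 0.12, edgeR adjusted p = 0.000903). This is within 1 standard error of the 1.5-fold line, and the value was -0.56 without control replicate 2, -0.584 without miR182 replicate 2 and -0.55 without miR182 replicate 3, each short of the call, although the adjusted p stayed at or under 0.00612. Gjb5 is encoded at chromosome 4, 127354809 to 127358181 (minus strand), and its longest 3′-UTR, at 725 bases, held none of the seed matches.

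Gjc1 and Gjb2 did not pass the test. Gjc1, a connexin of smooth muscle and heart, measured 11.9 ± 1.05 CPM in controls and 10.7 ± 0.297 CPM with miR182 (SD, n = 3 each), with a log2 fold change of -0.16 (95% interval -0.33 to 0.013). Gjb2, the connexin of the inner ear and epidermis, had 28 to 43 reads per sample and a log2 fold change of -0.044 (95% interval -0.48 to 0.40). The 12 connexins below the filter had at most 3 reads each, among them Gja4 and Gja5, which are known from arterial endothelium. Connexin CPM summed to 102 ± 1.59 in controls and 80.2 ± 1.87 with miR182 (SD, n = 3 each).

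Cadherins were the most abundant of the 5 families and moved least. Cdh11, a cadherin of mesenchymal cells, had the highest level per kilobase of any junction gene in both groups and took 80.5% of cadherin reads in controls. It measured 334, 334 and 323 CPM in controls and 309, 325 and 315 CPM with miR182. One miR182 sample lay above the lowest control. The log2 fold change was -0.064 (SE 0.029, 95% interval -0.13 to -0.0017, edgeR adjusted p = 0.0863), so a change beyond 0.13 in size is outside the interval. Cdh2, encoding N-cadherin, measured 53.0, 55.5 and 55.6 CPM in controls and 57.0, 57.9 and 53.0 CPM with miR182. The lowest sample of either group was at 53.0 CPM, so the groups overlapped, and the log2 fold change was 0.032 (SE 0.044, 95% interval -0.063 to 0.13, edgeR adjusted p = 0.587).

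Cdh3, encoding P-cadherin, was the cadherin that rose by adjusted p. It was at 15.8, 14.6 and 14.9 CPM in controls and at 16.1, 17.5 and 17.7 CPM with miR182. The highest control and lowest miR182 sample were close. The log2 fold change was 0.18 (SE 0.065, edgeR adjusted p = 0.0356). It missed the cutoff with DESeq2 (adjusted p = 0.0935), with the replicate block (0.0622) and with 1 sample omitted in 4 of 6 fits, with 0.11 without control replicate 2, 0.0914 without control replicate 3, 0.0891 without miR182 replicate 2 and 0.103 without miR182 replicate 3. Cdh1, encoding E-cadherin, had at most 5 reads in any sample and was not tested.

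Cdh13, the membrane-anchored cadherin that binds adiponectin, was at 3.38 ± 0.550 CPM in controls and 3.40 ± 0.267 CPM with miR182 (SD, n = 3 each). The fitted log2 fold change, 0.012, had a 95% interval of -0.29 to 0.32, which leaves room for a change of either sign. Cdh24, a classical cadherin that binds catenins, had a log2 fold change of -0.23 (SE 0.15, edgeR adjusted p = 0.222). The remaining tested cadherins had 10 to 23 reads per sample, too few for a narrow interval. Cdh23, known from the tip links of hair cells, had 11, 12 and 14 reads in controls and 18, 21 and 16 with miR182, with no overlap and a log2 fold change of 0.46 (95% interval -0.15 to 1.07, edgeR adjusted p = 0.206). Cdh17, an intestinal cadherin, had a log2 fold change of 0.029 and a 95% interval of -0.68 to 0.74.

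Cdh19 and Cdh5 are usually read as signs of glial and endothelial cells. Cdh19, a cadherin of Schwann cells and the only tested junction gene with an 8-base seed match, had 14, 14 and 12 reads in controls and 10, 15 and 10 with miR182. The groups overlapped, and the log2 fold change was -0.30 (95% interval -0.99 to 0.39, edgeR adjusted p = 0.477). The 6 glial markers summed to 12.8 to 14.2 CPM in controls and 13.0 to 15.9 CPM with miR182, but of the 4 tested S100b was called lower (log2 fold change -0.71) and Mbp rose (0.56). Cdh5, the cadherin of vascular endothelium, had 11 to 17 reads per sample and a log2 fold change of -0.14 (95% interval -0.78 to 0.49). Below the filter, Cdh10, a cadherin of the nervous system, had 2, 7 and 4 reads in controls and 11, 8 and 12 with miR182. It passed the filter and was called higher when control replicate 2 was omitted.

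Per kilobase of exon, the order in controls ran from Cdh11 at 37.1 through Cldn12 at 11.9, Cldn15 at 11.7, Tjp1 at 11.1 and Jam3 at 10.5 to Gja1 at 7.58 and Cdh2 at 6.78 CPM per kilobase. From Cldn12 to Jam3 these neighbours lay close together, each within 1 CPM per kilobase of the next, and Cldn12 and Cldn15 did not differ beyond their spread. With miR182 the order was Cdh11 at 35.5, Cldn15 at 30.1, Cldn12 at 17.0, Tjp1 at 13.3, Jam3 at 8.48, Cdh2 at 6.94 and Gja1 at 5.65 CPM per kilobase. The genes that had been nearly level in controls were spread out, because Cldn15 and Cldn12 rose, Tjp1 rose by less and Jam3 fell. Cdh3 and Jam2 lay lower, between 2.13 and 3.90 CPM per kilobase in both groups.

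**Figure D3:**
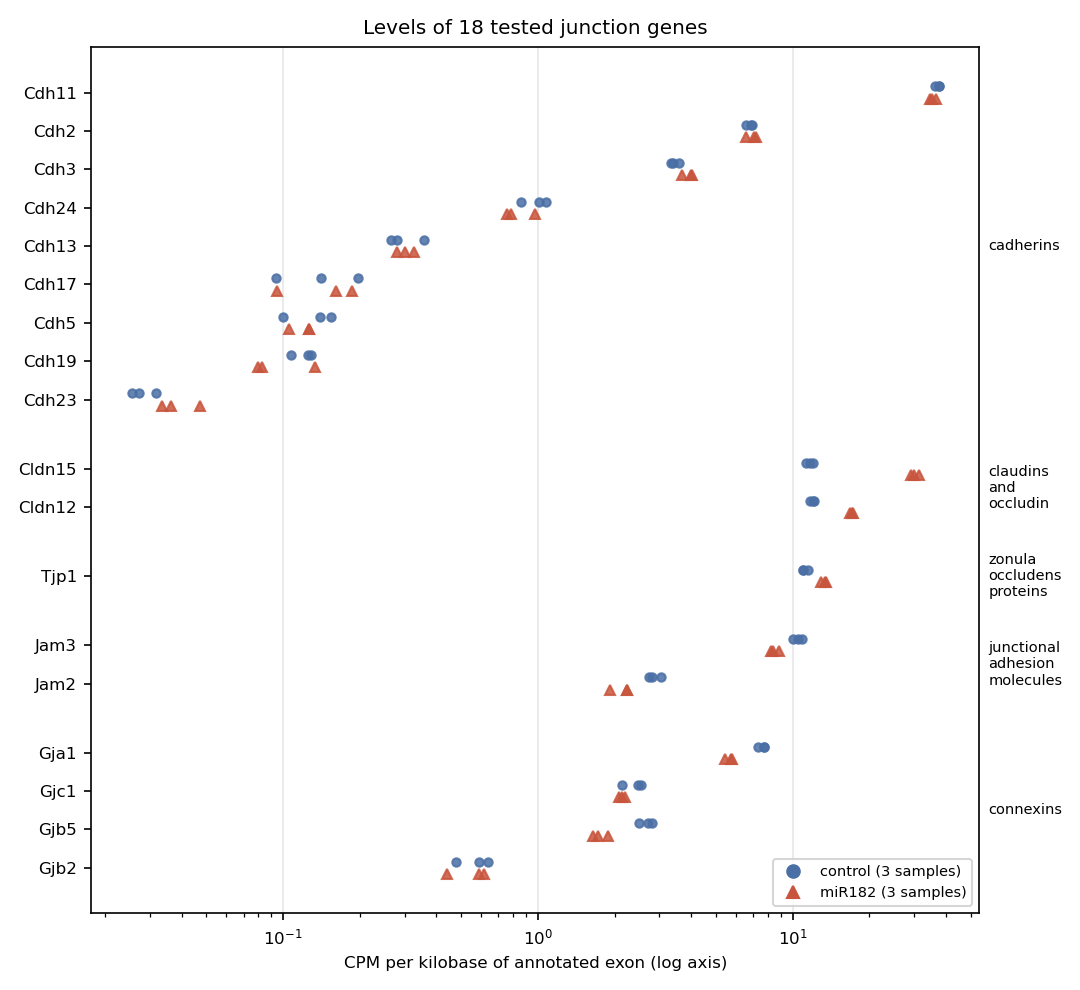
CPM per kilobase of annotated exon on a log axis for 18 tested junction genes, by family; circles are the 3 control samples and triangles the 3 miR182 samples. Cdh11 has the highest level in both groups, and the Cldn15 triangles lie to the right of its circles. Cdh23 is the lowest at 0.028 in controls, and Cdh17, also low at 0.14 in controls, shows the widest scatter.

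The proteins that work with these members were examined as a list of 65 genes found in the files, of which 39 were tested. By adjusted p, 14 rose and 5 fell, which is 48.7% against 46.7% of all genes tested, and the median log2 fold change was 0.0041. By call, 2 were higher and 0 were lower, which is 5.13% against 7.45% of all genes tested. Those 2 were Pkp2, which encodes a plakophilin of desmosomes, and Pard6b, a polarity protein with few reads. Pkp2 measured 19.9 ± 1.49 CPM in controls and 30.3 ± 1.44 CPM with miR182 (SD, n = 3 each), and its log2 fold change was 0.61 (SE 0.063, edgeR adjusted p = 2.96e-06). Pard6b had 11, 13 and 13 reads in controls and 23, 20 and 23 with miR182, a log2 fold change of 0.72 (SE 0.26, edgeR adjusted p = 0.0343). Neither gene was called without control replicate 1 or without miR182 replicate 1, and 1 of them was called without miR182 replicate 2. Desmosomal cadherins and Dsp, without which a desmosome is not complete, had at most 6 reads in any sample.

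Catenins, the cytoplasmic partners of classical cadherins, rose slightly while Cdh11 and Cdh2 passed no cutoff. Ctnnb1 encodes β-catenin, Ctnna1 the α-catenin that binds actin, Ctnnd1 the catenin that holds cadherins at the membrane and Jup the plakoglobin shared with desmosomes. Their log2 fold changes were 0.095, 0.13, 0.24 and 0.29 (standard errors 0.026, 0.027, 0.032 and 0.063), with adjusted p of 0.00869, 0.00155, 3.64e-05 and 0.00187 by edgeR. All 4 remained well under 1.5-fold. Vcl, encoding the actin linker vinculin, fell by 0.084 on the log2 scale (edgeR adjusted p = 0.0259), and Ctnnal1 did not pass (edgeR adjusted p = 0.108).

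Nectins, a further class of adhesion receptors at adherens junctions, their linker afadin and the related receptor Pvr were all tested except Pvrl4. Of the 5 genes 4 rose (Pvrl2, Pvrl3, Pvr and Mllt4, which encodes afadin) and 1 fell (Pvrl1) by adjusted p, where 46.7% of all genes tested changed. Of the 19 other tight junction and polarity genes tested, 4 rose, 3 fell and 12 did not pass, so that 36.8% changed, against the same 46.7%. Mpdz, a scaffold that binds claudin tails, was among those that rose, with a log2 fold change of 0.32 (SE 0.027, edgeR adjusted p = 4.71e-07), and is named here after its values were seen. The 3 that fell were Ildr2, Pard3b and Amotl2, with log2 fold changes of -0.40, -0.35 and -0.11 (edgeR adjusted p = 2.23e-05, 0.000876 and 0.00614). The median log2 fold change over the 19 was -0.017. The single pannexin tested did not pass. Of the 6 transcription factors known for repressing E-cadherin in epithelial-mesenchymal transition, Snai1 rose (log2 fold change 0.20, edgeR adjusted p = 0.00271), again named after its values were seen, and 5 did not pass.

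**Figure D4:**
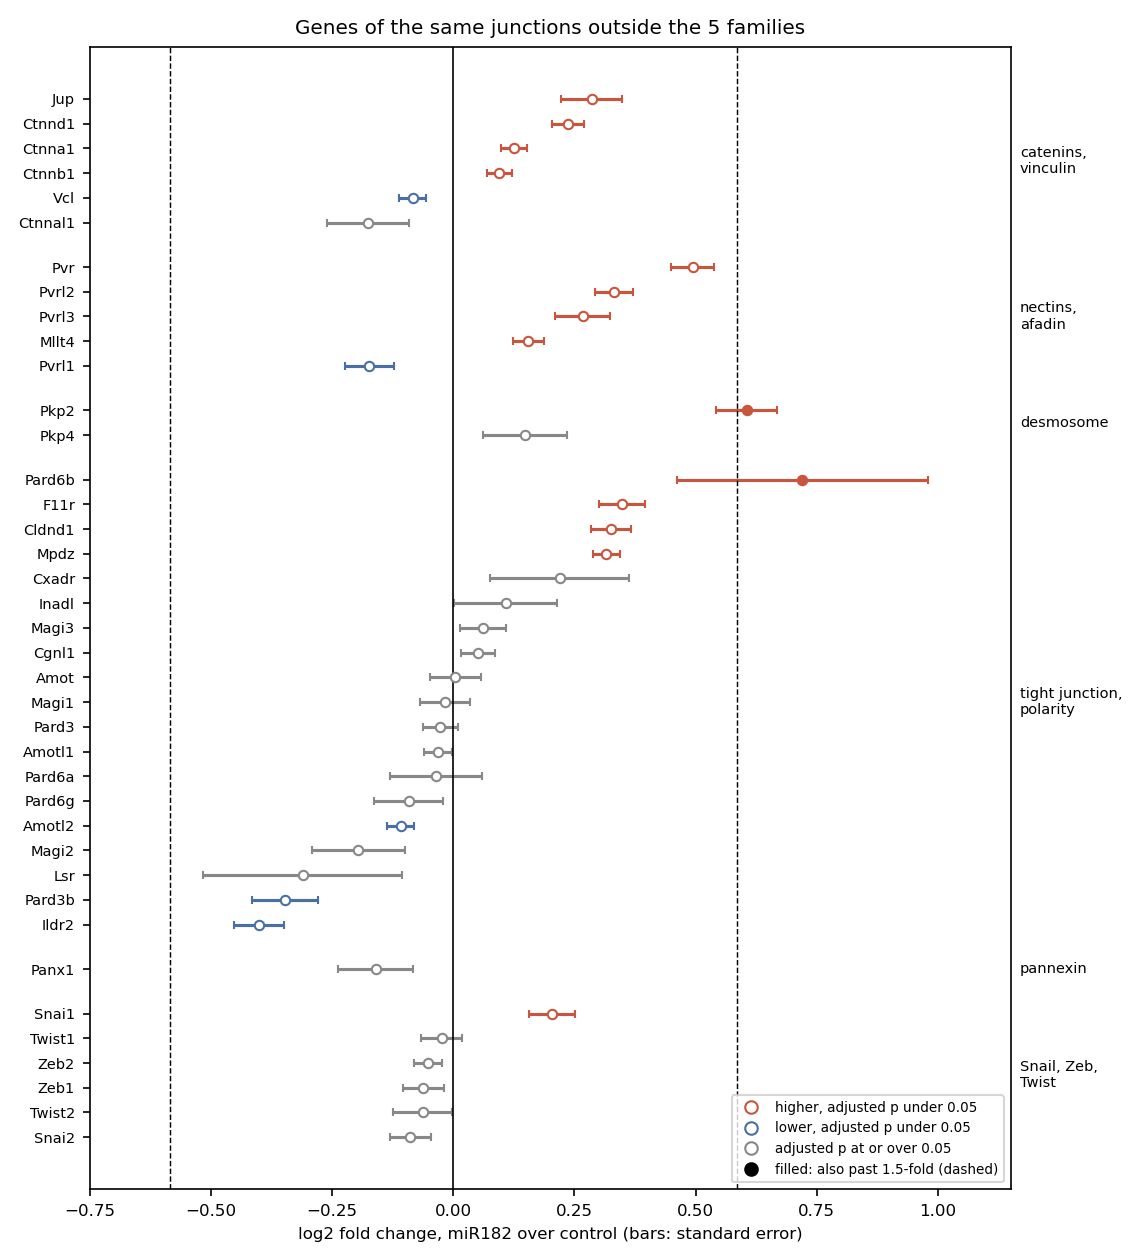
Log2 fold change of miR182 over control with its standard error for the 39 tested genes of the same junctions outside the 5 families; colour marks an adjusted p under 0.05 and filled points also pass 1.5-fold (dashed). Only Pkp2 and Pard6b are filled, and most catenin and nectin points lie to the right of 0.

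The labelled cell type was checked against marker lists. All 10 adipocyte markers were tested, and their summed level ranged from 12758 to 13542 CPM in controls and from 8851 to 10020 CPM with miR182, with 7 lower and 1 higher by adjusted p. Of 12 stromal progenitor markers 11 were tested, summing to 41141 to 42969 CPM in controls and 36176 to 37388 CPM with miR182, with 8 lower and 1 higher. By adjusted p, 23.5% of all genes tested were lower and 23.2% higher. At 1.5-fold, 2 of 10 adipocyte (20%) and 5 of 11 stromal markers (45.5%) were called lower and 0 higher. Among all genes tested 5.48% were called lower. Most of the adipocyte sum was Lpl and Fabp4, and both fell. Most of the stromal sum was Col1a1 and Col3a1. Col1a1 did not pass the test (log2 fold change -0.046, edgeR adjusted p = 0.378), and Col3a1 fell (-0.32, edgeR adjusted p = 1.23e-05). Both sums moved in the same direction as Gja1, Jam2 and Jam3, and the part of these markers in those results was not tested. Of 7 smooth muscle and pericyte markers 6 were tested, with 3 higher, 1 lower and 2 not passing by adjusted p and a median log2 fold change of 0.092. They summed to 2443 to 2578 CPM in controls and 3000 to 3209 CPM with miR182, almost all of it Acta2, and the part of this shift in the rise of the claudins and Tjp1 was not tested either. Macrophage markers ranged from 14.4 to 15.6 CPM in controls and from 12.4 to 15.7 CPM with miR182. Of the 4 tested, 1 was called lower and 3 did not pass by adjusted p, with a median log2 fold change of -0.42. Mesothelial markers reached at most 1.34 CPM. The skeletal muscle list summed to at most 18.8 CPM in controls and at least 28.4 CPM with miR182, almost all of it Acta1, while Myod1, Ckm and Pax7 had 0 reads in every sample.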

How the data were processed

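Poly(A) RNA of 6 cultures was sequenced in strand-specific libraries. The deposited files hold unnormalized counts of reads for each gene symbol. Per the labels, TopHat2 and HTSeq were used with build mm9. Versions, annotation and the strand setting are not given in the sources used here. The 5 closing tally lines of each list were left out: reads outside genes were 12.7% to 13.0% of uniquely aligned reads, and multiply aligned reads were tallied outside the genes, which can lower the counts of close paralogs.

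Counts were tested as deposited in R 4.3.3 with edgeR 4.0.16 (glmQLFit and glmQLFTest after TMM scaling and the default filterByExpr, minimum count 10) on 2 groups without a block, with Benjamini-Hochberg adjustment over 13117 genes. Intervals use the fit's own degrees of freedom. Permutation tests (scipy 1.17.1) are exact, over samples, on log2(CPM + 0.1), or on log2 of a ratio within a sample. The scripts were tested on simulated data.

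The 74 genes match fixed symbol patterns. Of the 22 that passed the filter 18 are described, in full for called genes and the highest levels of each family, and 4 are not reported here. Untested genes are named from 10 reads upward, and others below that were named after their values were seen. The members, the lists of partner and marker genes, and the tests were chosen with earlier results of these data known. Symbols were matched to GENCODE M21 (GRCm38) for 22138 of 22609 genes, which gave coordinates, exon lengths and 3′-UTRs. No coordinate was converted between builds. DESeq2 1.42.0, limma-voom (limma 3.58.1), other normalization, filters and cutoffs, the replicate block and leaving out each sample were alternatives.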

Additional observations from a re-analysis of the deposited data

How the results depend on the processing

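Of the 18 tested junction genes described, 12 kept their direction and their side of the adjusted p cutoff in all 13 alternative fits, and 7 (Cldn15, Cldn12, Tjp1, Jam2, Jam3, Gja1 and Gjb5) stayed under 0.05 in every one. Junction genes called numbered 3 (2 higher, 1 lower). They numbered 1 higher and 1 lower with DESeq2, limma-voom, upper-quartile factors or the replicate number as a block. With no filter 1 was higher and 3 were lower, with Cldn1 and Cldn11 added. With a 2-fold cutoff or glmTreat 1 was called, 1 higher and 0 lower. By adjusted p alone 10 were, 6 higher and 4 lower. Leaving out 1 sample gave 1 to 2 called, 1 to 2 higher and 0 to 1 lower. Partner genes called numbered 2. They were 1 with DESeq2 or the replicate block, 0 with a 2-fold cutoff or glmTreat, 19 by adjusted p alone and 0 to 2 without 1 sample. The cause was not tested, except that a stricter or absent fold cutoff changes the count by construction.

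Signs turned only for genes that did not pass. The log2 fold change of Cdh13 was -5.6e-07 with upper-quartile factors, and leaving out 1 sample it ranged from -0.069 to 0.15 for Cdh13, from -0.20 to 0.32 for Cdh17 and from -0.16 to 0.087 for Gjb2. Cdh11 passed the adjusted p only with upper-quartile factors (0.0453) and Gjc1 only without control replicate 2 (0.0323). Same-numbered samples did not deviate together (correlations of -0.18, -0.044 and -0.079), so the numbers were not taken as pairs. The block left 8 of the 10 genes past the adjusted p, and Cdh3 missed it. Cdh5, Cdh17, Cdh19 and Cdh23, with 10 to 23 reads per sample, had standard errors of 0.29 to 0.33 on the log2 scale, against 0.029 for Cdh11, which limits what this depth can show for them.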
